A study of Mus musculus with 19 samples.

Results

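The hypoxia-inducible factors and a set of their targets were followed in brain endothelial cells (bECs) of socially defeated mice. The set holds 10 genes: the factors Hif1a and Epas1, the oxygen sensors Egln1 and Egln3, and the targets Bnip3, Ndrg1, Ankrd37, Hilpda, Kdm3a and P4ha1. Each was read from the array row that carries its symbol alone, 1 row per gene, out of 65956 rows tested, of which 30638 carry 1 gene symbol. The arrays came from 19 young adult male C57BL/6N mice of WT genotype, 1 brain per array, with bECs sorted as live CD31+ single cells from forebrain freed of myelin and meninges. Home cage (HC) mice (animals 1, 2, 5 and 6) lived in pairs with a partition between them and were not defeated. Defeated mice lived beside an aggressive CD-1 male, with a short daily encounter (10 min by the labels, less by the methods, a difference that could not be settled), for 1 day (CSD1, animals 4, 18 and 19), 7 days (CSD7, animals 9, 16, 17 and 25) or 14 days (CSD14, animals 12, 13, 14 and 15). Mice of CSDrec (animals 28, 29, 30 and 31) had 14 days of defeat and then 7 days in the home cage. By the methods, all mice but those of CSD1 had behavioural tests on the day before collection, in part near a CD-1 mouse held in a cylinder. CSD7, CSD14 and CSDrec mice had been selected for behaviour that marks stress susceptibility. Length of defeat, testing and selection therefore cannot be told apart between CSD1 and these groups, nor can defeat and testing between CSD1 and HC. HC animal 5 is home cage by title and source, although another field of its label reads stressed, and it was kept in HC.

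Hypoxia-inducible factors are pairs of an alpha and a beta subunit. With oxygen present, prolyl hydroxylases mark the alpha subunit for destruction through the von Hippel-Lindau protein. When oxygen is short the alpha subunit persists, pairs with Arnt and switches on genes for glycolysis, vessel growth, mitophagy and matrix. Hif1a encodes an alpha subunit found in most cells, and Epas1 encodes the alpha subunit typical of endothelium. Since the alpha subunits are governed mainly at the protein level, their mRNA does not give their activity, and the arrays measured mRNA only.

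Values are log2 intensities as the authors normalized them. They are compared between animals for 1 gene, never between genes. A row was taken as above background when its mean exceeded log2 3.10, the 95th percentile of 1758 rows for olfactory, vomeronasal and taste receptors (the receptor level), as 30254 rows did. Of the 10 genes, 9 lay above it, and Egln3, at a mean of 2.87, did not. All 16 endothelial markers examined lay above it as well. Their mean per animal was 10.14 to 10.42 in HC and 10.46 to 10.63 in CSD1. It was 10.34 to 10.63 in CSD7, 10.51 to 10.64 in CSD14 and 10.45 to 10.66 in CSDrec. Of the 16, 4, 2, 6 and 0 were called higher than in HC, from CSD1 through to CSDrec. Over all rows, 5.84%, 9.04%, 6.87% and 0.0167% were. The arrays of HC animals 1 and 2 stood apart. Their area under the curve for telling positive from negative controls was 0.845 and 0.830, where the remaining 17 arrays had 0.891 to 0.929. Their median over rows above the receptor level was 4.01 and 4, and that of the remaining arrays 4.39 to 4.50. The differences from HC are therefore given with these animals and without them. Markers of microglia were also higher outside HC: the mean of 7 of them was 4.50 to 4.64 in HC, against 4.83 to 6.41 (CSD1), 5.13 to 6.88 (CSD7), 5.30 to 5.74 (CSD14) and 5.34 to 6.03 (CSDrec). Of the 7, 3, 7, 2 and 0 were called higher than in HC. The mean of 7 pericyte markers was 4.74 and 4.70 in HC animals 1 and 2 but 7.38 and 7.17 in HC animals 5 and 6, the highest of all 19, with 5.18 to 7.02 elsewhere and 0 called. Every value against HC animals 5 and 6 alone rests on these arrays. Astrocyte markers (5 genes) had 3.54 to 3.76 in HC and up to 5.83 in CSD7, neuronal markers (4 genes) 4.13 to 4.38 and up to 5.99, and smooth muscle markers (4 genes) 3.77 to 4.64 and up to 5.85, each of these maxima in CSD7 animal 9. The part of HC animals 1 and 2 and of RNA from other cell types in the values below was not tested beyond the fits without those animals. In sorted cells, more cells of a type and more RNA per cell cannot be told apart.

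The factor recognizes a short core in DNA, ACGTG or GCGTG. The 250 bases before each annotated transcript start were searched for both, on both strands, in sequences from RefSeq (GRCm38.p6). Windows were at hand for 8 of the 10 genes, 11 windows in all, but not for Epas1 or Ndrg1. A core occurred in 8 of the 11 windows (72.7%), against 38.6% of 32851 mouse windows of the same length. ACGTG was present in 63.6% of the windows against 16.6%, and GCGTG in 54.5% against 28.2%. Both cores hold the pair CG, and windows were not matched for base composition. Most genes of the set were chosen as targets of the factor, so a higher share says nothing about the arrays. Kdm3a and Hilpda each gave more than 1 window, some of them overlapping, so the windows are not independent. The sequences shown belong to the genes called higher in at least 1 comparison below that have a window. They are Bnip3 (chr7:138909507-138909756, minus strand), Egln1 (chr8:124949255-124949504, minus strand), P4ha1 (chr10:59323046-59323295, plus strand) and Kdm3a (chr6:71632918-71633167, minus strand, the 1 window with a match among 3). They run 5′ to 3′ towards the transcript start, with the cores of either strand in capitals and overlapping cores as 1 run.
Bnip3: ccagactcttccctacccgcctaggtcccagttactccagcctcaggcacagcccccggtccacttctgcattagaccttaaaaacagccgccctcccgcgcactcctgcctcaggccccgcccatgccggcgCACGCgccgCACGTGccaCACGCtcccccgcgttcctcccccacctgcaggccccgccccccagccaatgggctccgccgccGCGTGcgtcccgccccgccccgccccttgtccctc
Egln1: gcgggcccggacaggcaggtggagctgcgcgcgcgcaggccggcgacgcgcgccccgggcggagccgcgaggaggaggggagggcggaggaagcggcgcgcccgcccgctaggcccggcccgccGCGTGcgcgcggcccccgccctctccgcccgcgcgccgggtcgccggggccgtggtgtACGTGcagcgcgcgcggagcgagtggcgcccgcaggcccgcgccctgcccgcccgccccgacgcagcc
P4ha1: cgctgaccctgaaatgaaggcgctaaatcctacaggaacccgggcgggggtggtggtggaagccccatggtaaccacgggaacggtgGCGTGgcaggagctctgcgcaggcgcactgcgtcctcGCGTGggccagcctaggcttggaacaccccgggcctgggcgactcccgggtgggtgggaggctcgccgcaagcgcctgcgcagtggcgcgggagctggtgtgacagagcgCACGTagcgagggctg
Kdm3a: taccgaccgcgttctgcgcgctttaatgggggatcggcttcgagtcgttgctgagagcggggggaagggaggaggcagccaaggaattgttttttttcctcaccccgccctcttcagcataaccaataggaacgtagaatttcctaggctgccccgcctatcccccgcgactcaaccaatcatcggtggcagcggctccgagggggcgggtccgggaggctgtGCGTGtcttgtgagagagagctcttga
In Bnip3 the run CACGTG reads ACGTG on both strands, 107 and 108 bases before the start, and 3 copies of GCGTG lie at 117, 99 and 35 bases. Egln1 had GCGTG at 126 and ACGTG at 68 bases, and P4ha1 had GCGTG at 163 and 126 bases and ACGTG, on the other strand, at 16 bases. Kdm3a had a single GCGTG, 27 bases before the start. A match describes these letters alone and is no measure of binding.

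Of the 10 genes, 2 were called higher in CSD1 than in HC, 4 in CSD7, 2 in CSD14 but 0 in CSDrec, and 0 were called lower in these comparisons (limma, adjusted p under 0.05 over all rows). Over all rows tested, 5.84%, 9.04%, 6.87% and 0.0167% were called higher in the same order, and 0.960%, 1.96%, 1.03% and 0% lower. Among rows above the receptor level 12.6%, 19.2%, 14.5% and 0.0364% were called higher. At an unadjusted p under 0.05, 9, 7, 7 and 1 of the 10 were higher, beside 19.1%, 21.4%, 19.8% and 19.9% of all rows. With HC animals 1 and 2 left out, 0 of the 10 were called in any of the 4 comparisons, as were 0%, 0.00455%, 0.00303% and 0% of all rows. Unadjusted, 0, 2, 2 and 0 of the 10 were then higher, beside 5.65%, 6.02%, 5.74% and 4.88% of all rows. Every animal lay above every HC animal for Epas1 in CSD1 (as for 9.78% of rows), for Bnip3, Ndrg1, Kdm3a and P4ha1 in CSD7 (7.47%), for Epas1, Bnip3 and Ndrg1 in CSD14 (10.1%) and for Epas1 and Ndrg1 in CSDrec (8.38%). Among rows above the receptor level, where these genes lie, the shares were 19.5%, 14.8%, 19.5% and 15.6%. Leaving out HC animal 1 alone or HC animal 2 alone brought the counts in CSD1, CSD7 and CSD14 to 0, as did leaving out animal 18 or 19 for CSD1, animal 17 for CSD7 and animal 13 for CSD14, whereas leaving out HC animal 5 or 6 raised them to 5 to 7. The share of all rows called moved likewise, to 0% to 0.552% without HC animal 1 or 2 and to 19.8% to 28.0% without HC animal 5 or 6. It was 0% for CSD1 without animal 18 or 19, 1.95% for CSD7 without animal 17 and 0.640% for CSD14 without animal 13. The 4 comparisons share the same HC animals and are not independent of each other.

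**Figure D1:**
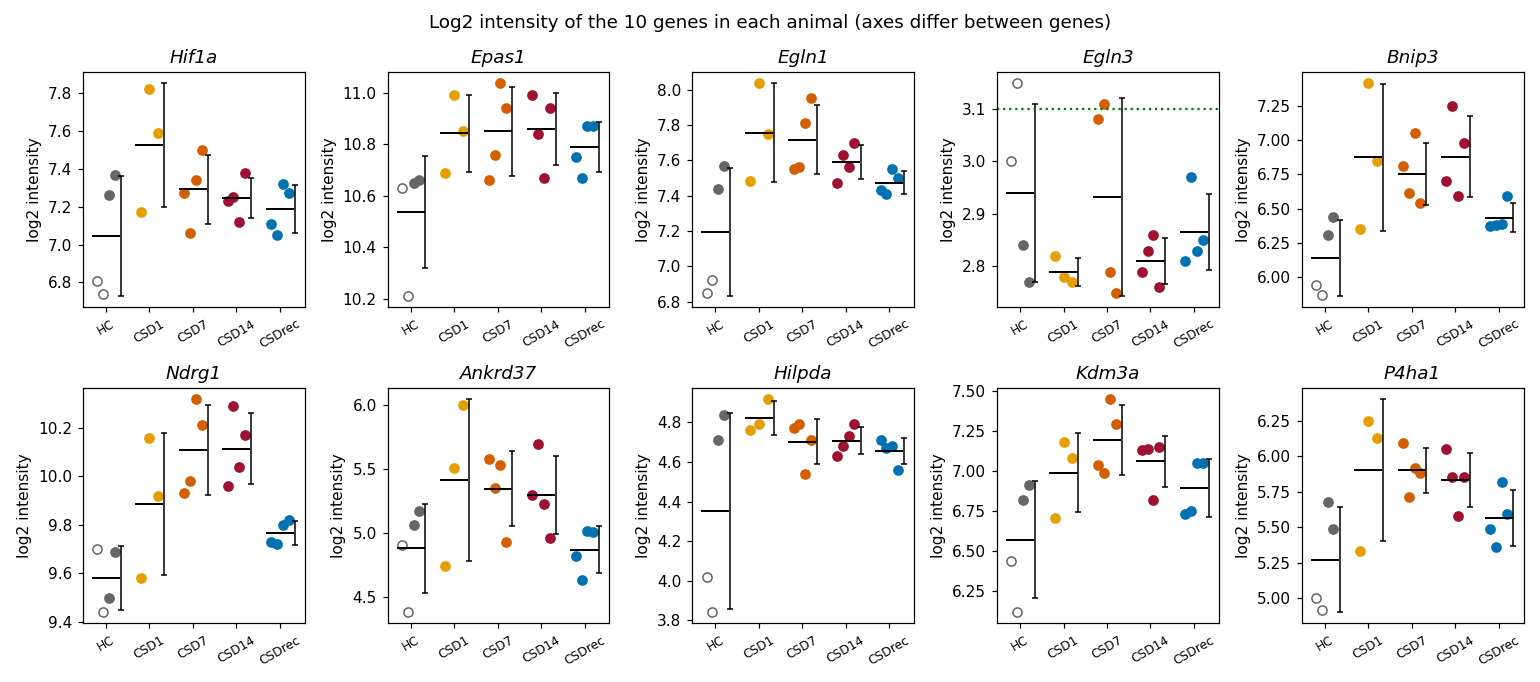
Log2 intensity (vertical axes, which differ between panels) of the 10 genes in each of the 19 animals, by group. Points are animals, horizontal lines group means and vertical bars 1 SD; open circles are HC animals 1 and 2, and the dotted line in the Egln3 panel is the receptor level. For Ndrg1 the 4 CSD7 and 4 CSD14 animals (9.93 to 10.32) all lie above the 4 HC animals (9.44 to 9.70), with the CSDrec animals between (9.72 to 9.82).

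The mRNA of Hif1a was highest in CSD1 and was not called in any comparison. Its log2 intensity was 6.81, 6.74, 7.26 and 7.37 in HC animals 1, 2, 5 and 6, 7.17, 7.82 and 7.59 in CSD1, 7.27, 7.06, 7.34 and 7.50 in CSD7, 7.23, 7.25, 7.12 and 7.38 in CSD14 and 7.11, 7.05, 7.32 and 7.27 in CSDrec. HC animals 1 and 2 lay below all other animals, while HC animals 5 and 6 lay within the range of CSD1, CSD7 and CSD14 and animal 6 just above that of CSDrec. CSD1 exceeded HC by 0.48 (SE 0.16, adjusted p 0.0684), CSD7 by 0.25 (SE 0.15, adjusted p 0.253), CSD14 by 0.20 (SE 0.15, adjusted p 0.375) and CSDrec by 0.14 (SE 0.15, adjusted p 0.551). Against HC animals 5 and 6 alone these values were 0.21, -0.02, -0.07 and -0.13. A further row that names Hif1a also names Gm15283, with a mean of 3.36, and was not used.

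Epas1 was not called in any comparison. Its values were 10.63, 10.21, 10.65 and 10.66 in HC, 10.69, 10.99 and 10.85 in CSD1, 10.66, 10.76, 11.04 and 10.94 in CSD7, 10.99, 10.84, 10.67 and 10.94 in CSD14 and 10.75, 10.67, 10.87 and 10.87 in CSDrec. Every animal of CSD1, CSD14 and CSDrec lay above every HC animal, while the lowest CSD7 animal met the highest HC animal. The differences from HC were 0.30 (SE 0.12), 0.31 (SE 0.11), 0.32 (SE 0.11) and 0.25 (SE 0.11) in CSD1, CSD7, CSD14 and CSDrec, with adjusted p of 0.111, 0.0745, 0.0748 and 0.163. They were 0.18, 0.19, 0.21 and 0.13 against HC animals 5 and 6 alone. The 4 group means outside HC spanned 10.79 to 10.86.

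Egln1 encodes the main prolyl hydroxylase of the factor and is itself a target of it. Its values were 6.85, 6.92, 7.44 and 7.57 in HC, 7.48, 8.04 and 7.75 in CSD1, 7.55, 7.56, 7.81 and 7.95 in CSD7, 7.47, 7.63, 7.56 and 7.70 in CSD14 and 7.43, 7.41, 7.55 and 7.50 in CSDrec. HC animals 1 and 2 were again the lowest of all 19, and HC animals 5 and 6 overlapped with each defeated group. It was called higher in CSD1 (0.56, SE 0.16, 1.48-fold, adjusted p 0.0462) and CSD7 (0.52, SE 0.15, 1.44-fold, adjusted p 0.0357). In CSD14 the difference was 0.40 (SE 0.15, adjusted p 0.095) and in CSDrec 0.28 (SE 0.15, adjusted p 0.241). Set against HC animals 5 and 6 alone, the 4 differences were 0.25, 0.21, 0.09 and -0.03, and the calls were lost (adjusted p 0.67 in CSD1 and CSD7). Egln3, a further prolyl hydroxylase and a strong target in many cells, ranged from 2.75 to 3.15 over the 19 animals, with only HC animal 2 and CSD7 animal 16 above the receptor level. Its differences from HC lay between -0.15 and -0.01, and no level is read from them.

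Ndrg1, which encodes a cytoplasmic protein induced by hypoxia and other stresses, had the lowest p of the 10 genes in CSD7 and in CSD14. Its values were 9.70, 9.44, 9.50 and 9.69 in HC, 9.58, 10.16 and 9.92 in CSD1, 9.93, 9.98, 10.32 and 10.21 in CSD7, 9.96, 10.29, 10.04 and 10.17 in CSD14 and 9.73, 9.72, 9.80 and 9.82 in CSDrec. Every CSD7, CSD14 and CSDrec animal lay above every HC animal, and CSD1 animal 4 lay among the HC animals. HC animals 1 and 2 were here not the lowest pair: animal 1 was the highest of the 4. The gene was called higher in CSD7 (0.53, SE 0.12, 1.44-fold, adjusted p 0.0183) and CSD14 (0.53, SE 0.12, 1.45-fold, adjusted p 0.019). In CSD1 the difference was 0.31 (SE 0.12, adjusted p 0.114) and in CSDrec 0.19 (SE 0.12, adjusted p 0.303). Leaving out HC animals 1 and 2 gave 0.51 in CSD7 and 0.52 in CSD14 (SE 0.14 in each), with an adjusted p of 0.27 and 0.22.

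Bnip3, a receptor on the outer mitochondrial membrane that directs mitophagy, showed the largest differences from HC among the 10 genes in CSD1 and CSD14. Its values were 5.94, 5.87, 6.31 and 6.44 in HC, 6.35, 7.42 and 6.85 in CSD1, 6.81, 6.61, 7.05 and 6.54 in CSD7, 6.70, 7.25, 6.59 and 6.98 in CSD14 and 6.37, 6.38, 6.39 and 6.59 in CSDrec. All CSD7 and CSD14 animals lay above all HC animals, whereas CSD1 animal 4 and 3 of the 4 CSDrec animals fell within the HC range. The difference was 0.73 in CSD1 (SE 0.21, 1.66-fold, adjusted p 0.0464) and 0.74 in CSD14 (SE 0.19, 1.67-fold, adjusted p 0.0326), both called. In CSD7 it was 0.62 (SE 0.19, adjusted p 0.0503), just short of the threshold, and in CSDrec 0.29 (SE 0.19, adjusted p 0.333). When HC animals 1 and 2 were left out, the differences were 0.50, 0.38, 0.50 and 0.06, in the order CSD1, CSD7, CSD14 and CSDrec, and 0 of them were called (adjusted p 0.53 to 0.98). Ranked with the other rows above the receptor level, the difference of Bnip3 stood at the 96 percentile in CSD1 and the 98.1 percentile in CSD14.

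Kdm3a and P4ha1 encode enzymes that, like the sensors, need oxygen. Kdm3a removes methyl groups from lysine 9 of histone H3, and P4ha1 is a catalytic subunit of the hydroxylase that stabilizes collagen. Kdm3a values were 6.44, 6.12, 6.82 and 6.91 in HC, 6.71, 7.18 and 7.08 in CSD1, 7.04, 6.99, 7.45 and 7.29 in CSD7, 7.13, 7.14, 6.82 and 7.15 in CSD14 and 6.73, 6.75, 7.05 and 7.05 in CSDrec. All CSD7 animals lay above all HC animals, and the other groups overlapped with HC. It was called in CSD7 alone (0.62, SE 0.16, 1.54-fold, adjusted p 0.0266), with 0.42, 0.49 and 0.32 in CSD1, CSD14 and CSDrec (adjusted p 0.12, 0.0638 and 0.21). P4ha1 values were 5.00, 4.92, 5.68 and 5.49 in HC, 5.33, 6.25 and 6.13 in CSD1, 6.09, 5.71, 5.92 and 5.88 in CSD7, 6.05, 5.85, 5.58 and 5.85 in CSD14 and 5.49, 5.36, 5.82 and 5.59 in CSDrec. Here too all CSD7 animals exceeded all HC animals, with overlap in the other groups. P4ha1 was called in CSD7 (0.62, SE 0.19, 1.54-fold, adjusted p 0.0448), and its differences in CSD1, CSD14 and CSDrec were 0.63, 0.56 and 0.29 (adjusted p 0.0655, 0.0722 and 0.323). Without HC animals 1 and 2 the CSD7 difference was 0.33 for Kdm3a (adjusted p 0.53) and 0.31 for P4ha1 (adjusted p 0.69).

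Ankrd37 and Hilpda were not called. Ankrd37, an ankyrin repeat gene known as a direct target of the factor, was the most variable within CSD1, with 4.74 in animal 4, 5.51 in animal 18 and 6.00 in animal 19, against 4.38 to 5.17 in HC. It ranged from 4.93 to 5.58 in CSD7, from 4.96 to 5.70 in CSD14 and from 4.63 to 5.02 in CSDrec, so that each group overlapped with HC. Its differences were 0.54, 0.47, 0.42 and -0.01 (SE 0.23 to 0.25, adjusted p 0.161 to 0.983), and 0.30, 0.24, 0.18 and -0.24 against HC animals 5 and 6 alone. Hilpda encodes a protein of lipid droplets that restrains lipolysis. Its HC values were 4.02 and 3.84 for animals 1 and 2 but 4.71 and 4.84 for animals 5 and 6, with all 15 others between 4.54 and 4.92. The excess over HC of 0.47, 0.35, 0.35 and 0.30, from CSD1 through to CSDrec (adjusted p 0.0895 to 0.237), became 0.04, -0.08, -0.07 and -0.13 without HC animals 1 and 2.

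**Figure D2:**
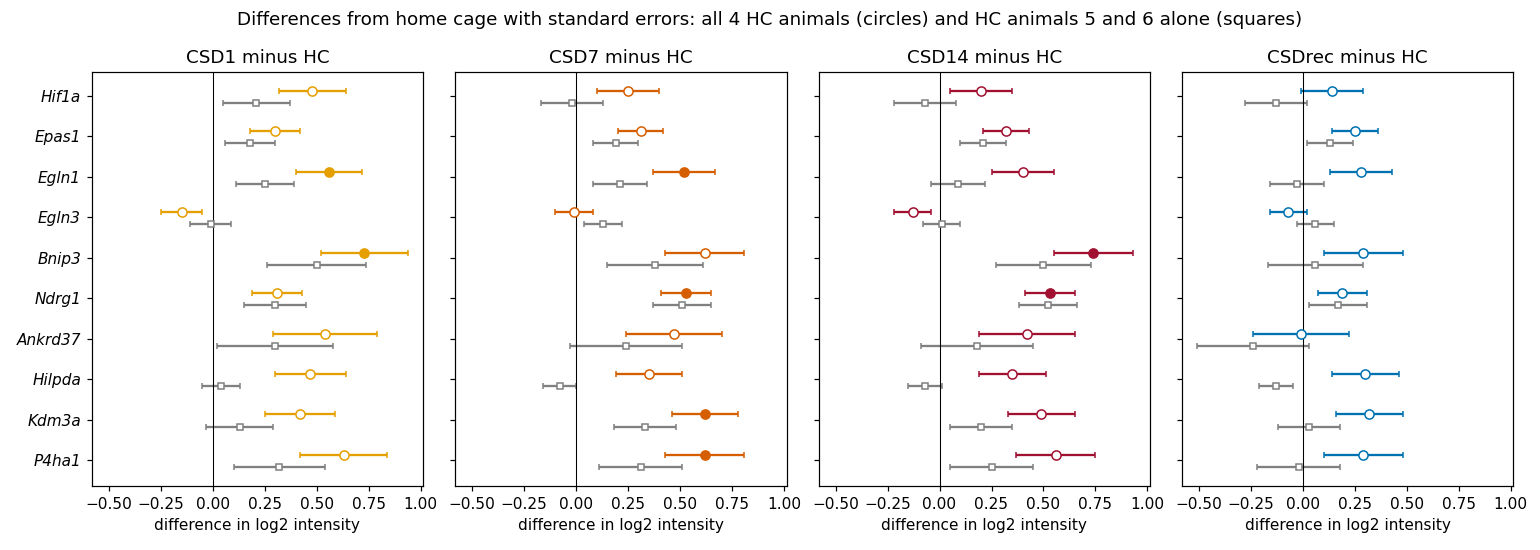
Differences from HC in log2 intensity (horizontal axes) for the 10 genes after 1, 7 and 14 days of defeat and after the return to the home cage, with bars of 1 SE. Circles use all 4 HC animals and are filled where limma called the gene; grey squares leave out HC animals 1 and 2, and 0 of them were called. The squares of Ndrg1 in CSD7 and CSD14 (0.51 and 0.52) lie close to their circles (0.53 each), whereas those of Hilpda lie near 0.

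Over the 10 genes the median excess over HC was 0.48, 0.50, 0.41 and 0.27, from CSD1 through to CSDrec, and that over all rows above the receptor level 0.23, 0.22, 0.21 and 0.22. Against HC animals 5 and 6 alone, the medians of the 10 genes were 0.23, 0.22, 0.19 and 0.01, beside 0.06, 0.06, 0.05 and 0.05. With all arrays forced to one distribution they were 0.11, 0.19, 0.14 and -0.03, beside 0.03, 0.04, 0.05 and 0.04. The mean of the 9 genes above the receptor level was 6.70, 6.49, 7.05 and 7.13 in HC animals 1, 2, 5 and 6. It was 6.98 in CSD1 animal 4, and 7.15 to 7.57 in the other CSD1 animals, all CSD7 and all CSD14 animals. CSDrec animals had 6.96 to 7.16, which overlaps with HC animals 5 and 6. CSD1 animal 4, the 1 animal of CSD1, CSD7 and CSD14 within the HC range of this mean, also had the lowest microglial marker mean outside HC (4.83). For the other animals, microglial means are given beside means of the 9 genes. HC animals 1, 2, 5 and 6 had 4.56, 4.50, 4.64 and 4.63 beside 6.70, 6.49, 7.05 and 7.13. CSD1 animals 18 and 19 had 6.11 and 6.41 beside 7.57 and 7.46. CSD7 animals 9, 16, 17 and 25 had 6.88, 6.25, 5.93 and 5.13 beside 7.30, 7.20, 7.44 and 7.33. CSD14 animals 12, 13, 14 and 15 had 5.54, 5.30, 5.71 and 5.74 beside 7.27, 7.40, 7.15 and 7.32. CSDrec animals 28, 29, 30 and 31 had 5.85, 6.02, 6.03 and 5.34 beside 7.02, 6.96, 7.16 and 7.14. A link between the means was not tested.

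With all 5 groups compared at once (limma F-test over the 4 differences from HC), 0 of the 10 genes passed the adjusted threshold, as did 0.555% of all rows. Ndrg1 came nearest (adjusted p 0.0586). At an unadjusted p under 0.05, 5 passed (Egln1, Bnip3, Ndrg1, Kdm3a and P4ha1), beside 21.1% of all rows. Between the lengths of defeat, 0 of the 10 were called (CSD7 against CSD1, CSD14 against CSD7, CSD14 against CSD1), as were 0% of all rows in either direction. At an unadjusted p under 0.05, 0 of the 10 passed in these 3 comparisons, beside 0.556%, 0.838% and 1.40% of rows higher and 0.823%, 0.687% and 1.48% lower. The largest of these differences was that of Hif1a, at -0.28 between CSD14 and CSD1 (SE 0.16). No order of the 10 genes by length of defeat can be read from these groups.

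After the return to the home cage, Bnip3 and Ndrg1 were lower than at the end of defeat, but not past the adjusted threshold. Bnip3 differed by -0.45 between CSDrec and CSD14 (SE 0.19, unadjusted p 0.034, limma) and Ndrg1 by -0.35 (SE 0.12, unadjusted p 0.0076, limma), with an adjusted p of 1 for each. These 2 of 10 genes stand beside 1.31% of all rows lower at that unadjusted level (0 of 10 and 2.36% higher), and 0% of rows were called lower or higher after adjustment. With all arrays forced to one distribution, Bnip3 differed by -0.42 (unadjusted p 0.02, limma). Ndrg1 then differed by -0.25 (unadjusted p 0.07, limma), so that it no longer passed the unadjusted level. For Ndrg1 every CSDrec animal (9.72 to 9.82) lay below every CSD14 animal (9.96 to 10.29). The same held for 2.33% of all rows and 4.05% of rows above the receptor level. For Bnip3 the highest CSDrec animal, 31, at 6.59, met the lowest CSD14 animal, 14, at the same value. Ankrd37 differed by -0.43 (SE 0.23), P4ha1 by -0.26 (SE 0.19), Kdm3a by -0.17 (SE 0.16) and Egln1 by -0.12 (SE 0.15). The median over the 10 genes was -0.14, against 0 over rows above the receptor level. The differences in this comparison do not involve the HC animals, but the SE and p do, as the spread is pooled over the 5 groups. Without HC animals 1 and 2, Bnip3 had an adjusted p of 0.69 and Ndrg1 of 0.64 (limma). Some marker means separated the groups: pericytes had 5.18 to 5.78 in CSD14 and 5.94 to 6.54 in CSDrec, and astrocytes 3.71 to 3.95 and 4.03 to 4.15. Border macrophage markers (5 genes) had 3.30 to 3.50 in CSD14 and 4.44, 4.35, 4.88 and 3.31 in CSDrec animals 28, 29, 30 and 31. Microglial means overlapped, with 5.30 to 5.74 and 5.34 to 6.03. The part of these cells in the differences was not tested.

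Besides the 10 genes, 78 further genes of the pathway were listed, of which 73 have a row of their own and 70 lay above the receptor level. Of the 73, 24 were called higher than in HC in CSD1 (32.9%), 35 in CSD7 (47.9%), 31 in CSD14 (42.5%) but 0 in CSDrec. Shares called higher were 5.84%, 9.04%, 6.87% and 0.0167% of all rows, and 12.6%, 19.2%, 14.5% and 0.0364% of rows above the receptor level. Of the 73 genes, the count called lower was 0 in each of these comparisons. Genes of glucose uptake and glycolysis made up 10, 13 and 12 of these calls among 18 in CSD1, CSD7 and CSD14. Mitochondrial and survival genes gave 6, 10 and 8 of 20, sensing genes and partners of the factor 4, 6 and 5 of 15, and vascular and matrix genes 4, 6 and 6 of 20. The lists were chosen with earlier results of these data known, and their counts are a description. Slc2a1, Kdr, Flt1 and Tek also stand among the endothelial markers above, so the marker counts and these counts share rows. Median differences over the 73 were 0.43, 0.42, 0.36 and 0.31 in CSD1, CSD7, CSD14 and CSDrec. Leaving out HC animals 1 and 2 gave 0.15, 0.17, 0.16 and 0.10, with 0 genes called and 21, 27, 25 and 9 of 73 higher at an unadjusted p under 0.05, beside 5.65%, 6.02%, 5.74% and 4.88% of all rows. With all arrays forced to one distribution, 0, 0, 2 and 0 of the 73 were called, beside 0%, 0.224%, 0.925% and 0.0212% of all rows in either direction.

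**Figure D3:**
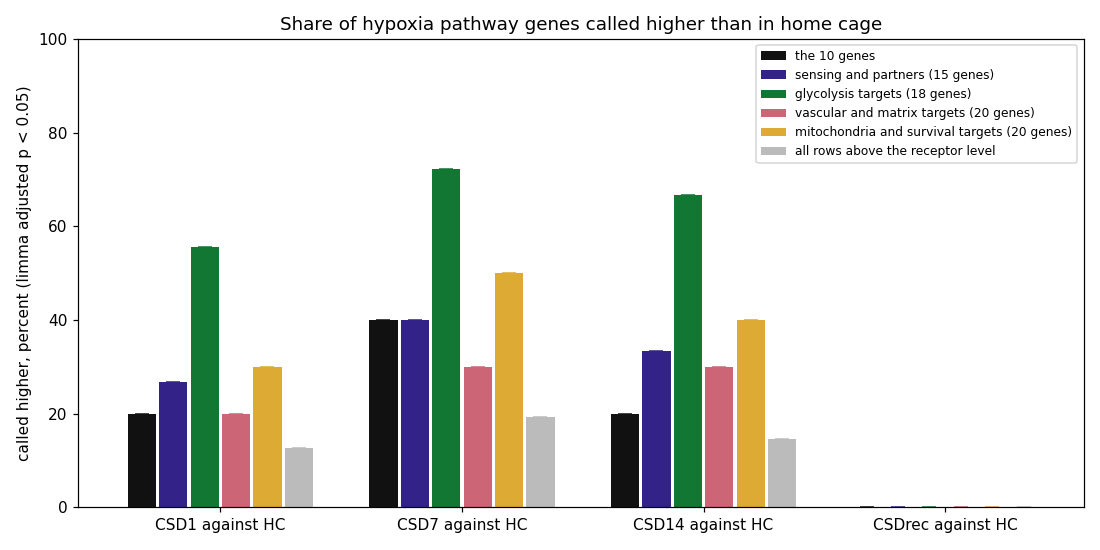
Percent of genes called higher than in HC (vertical axis, limma adjusted p under 0.05, all 4 HC animals) for the 10 genes, for 4 lists of other pathway genes and for all rows above the receptor level, in each comparison with HC. Glycolysis targets had the highest bar in CSD1, CSD7 and CSD14 (55.6%, 72.2% and 66.7%), beside 12.6%, 19.2% and 14.5% of rows above the receptor level. In CSDrec each list was at 0, beside 0.0364% of those rows.

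Among the sensing genes, Egln2, the third prolyl hydroxylase, was called in CSD1, CSD7 and CSD14 (0.37, 0.38 and 0.41, adjusted p 0.0452, 0.0277 and 0.0244). Hif3a, an alpha subunit that can oppose the others, was called in CSD7 and CSD14 (0.58 in each, adjusted p 0.018 and 0.0193). Arnt, the beta subunit, was not called, with 0.41, 0.36, 0.36 and 0.35 from CSD1 through to CSDrec. Vhl, whose product takes the hydroxylated alpha subunit to destruction, was not called either, with 0.32, 0.20, 0.08 and 0.17. Against HC animals 5 and 6 alone the values, from CSD1 through to CSDrec, were 0.15, 0.15, 0.18 and 0.13 for Egln2, 0.23, 0.38, 0.38 and 0 for Hif3a, 0.10, 0.05, 0.05 and 0.04 for Arnt and 0.12, 0, -0.12 and -0.04 for Vhl. None of these was called (adjusted p 0.33 to 1).

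The largest called differences among the other pathway genes in CSD7 and CSD14 were those of Adm and Edn1, peptides that widen and constrict vessels. Adm values were 4.67, 4.44, 5.51 and 5.00 in HC, 4.92, 6.95 and 6.92 in CSD1, 6.16, 6.48, 6.90 and 5.64 in CSD7, 5.97, 6.95, 6.13 and 6.14 in CSD14 and 5.68, 5.48, 5.48 and 5.63 in CSDrec. All CSD7 and CSD14 animals exceeded all HC animals, and CSD1 animal 4 did not. In CSD7 and CSD14 this held for 7.47% and 10.1% of all rows, and for 14.8% and 19.5% of rows above the receptor level. Adm was called in CSD7 and CSD14 (1.39 in each, SE 0.37, adjusted p 0.0301 and 0.0344), and its differences in CSD1 and CSDrec were 1.36 (adjusted p 0.0504) and 0.66 (adjusted p 0.259). Edn1 values were 8.34, 7.82, 8.10 and 8.35 in HC, 8.22, 9.63 and 8.43 in CSD1, 9.12, 9.02, 9.49 and 9.11 in CSD7, 9.39, 9.55, 8.82 and 9.03 in CSD14 and 8.81, 8.86, 8.90 and 8.78 in CSDrec. All CSD7, CSD14 and CSDrec animals exceeded all HC animals. In CSDrec this held for 8.38% of all rows and 15.6% of rows above the receptor level. For Edn1, HC animals 1 and 2 did not form a low pair. It was called in CSD7 (1.03, SE 0.23, 2.04-fold, adjusted p 0.0192) and CSD14 (1.04, SE 0.23, 2.06-fold, adjusted p 0.02), and not in CSD1 (0.61, adjusted p 0.12) or CSDrec (0.68, adjusted p 0.092). Against HC animals 5 and 6 alone the CSD7 and CSD14 differences were 1.04 and 1.04 for Adm and 0.96 and 0.97 for Edn1, with adjusted p of 0.26 to 0.51.

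Of the glycolytic genes, Ldha, which encodes a subunit of lactate dehydrogenase, had values of 7.00, 7.06, 7.18 and 7.21 in HC, 7.34, 8.08 and 7.95 in CSD1, 7.78, 7.74, 7.90 and 7.51 in CSD7, 7.78, 8.22, 7.78 and 7.69 in CSD14 and 7.36, 7.31, 7.42 and 7.69 in CSDrec. Every animal of the 4 other groups lay above every HC animal. Taken group by group, from CSD1 through to CSDrec, 9.78%, 7.47%, 10.1% and 8.38% of all rows did so. Among rows above the receptor level, 19.5%, 14.8%, 19.5% and 15.6% did. Ldha was called in CSD1, CSD7 and CSD14 (0.68, 0.62 and 0.75, adjusted p 0.0308, 0.0215 and 0.0146), and not in CSDrec (0.33, adjusted p 0.162). In CSDrec it was lower than in CSD14, but not called (-0.42, SE 0.15, unadjusted p 0.0095, limma). At an unadjusted p under 0.05, 1.31% of all rows were lower in that comparison. After adjustment, 0 of the 73 genes and 0% of all rows were called there. Pgk1, phosphoglycerate kinase, led the calls of CSD1 (0.83, SE 0.21, adjusted p 0.0338), followed by Narf (0.71, adjusted p 0.0317), and Elob (0.68, adjusted p 0.0377), a partner of the von Hippel-Lindau protein. Ddit4, an inhibitor of mTOR signalling, was called in CSD7 (0.87, SE 0.27, adjusted p 0.0438). These calls were lost against HC animals 5 and 6 alone. There the CSD1 values were 0.60 for Pgk1, 0.39 for Narf and 0.34 for Elob (adjusted p 0.47, 0.40 and 0.57), the CSD7 value was 0.91 for Ddit4 (adjusted p 0.39), and Ldha had 0.59, 0.53 and 0.67 in CSD1, CSD7 and CSD14 (adjusted p 0.37, 0.36 and 0.23). In CSDrec the largest differences from HC, not called, were those of Edn1, Adm and Hmox1 (0.65, SE 0.12, adjusted p 0.0554, or 0.44 against HC animals 5 and 6 alone), the last encoding the enzyme that breaks down heme.

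Across the 19 arrays, the 9 genes above the receptor level varied together. Over their 36 pairs, Pearson's r across the 19 arrays ran from 0.38 to 0.91 with a median of 0.76. Without HC animals 1 and 2 it ran from -0.35 to 0.85 with a median of 0.60 and 3 negative pairs, and over deviations from group means from 0.03 to 0.93 with a median of 0.62. Hif1a and Egln1 formed the closest pair (0.91 over 19 arrays, 0.84 over 17, 0.93 within groups). The arrays share their normalization, and these values are descriptions. They were not set beside r over pairs of other rows.

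Of 13617 other named genes above the receptor level, the 3 whose pattern was most like that of Hif1a across 19 arrays were Hsp90b1 (r 0.954), a chaperone of the endoplasmic reticulum, Zfp277 (0.945) and Gdi2 (0.944). Across the 17 arrays without HC animals 1 and 2 they were Snx14 (0.933), Hsp90b1 (0.928) and Mosmo (0.927), so that Hsp90b1 appeared under both. For Epas1 they were Mprip (0.94), Gtf2i (0.93) and Brpf1 (0.927) across 19 arrays, and Eif2ak3 (0.948), Asap1 (0.933) and Glg1 (0.927) across 17, with no gene shared. These are the highest of many correlations over few arrays.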

How the data were processed

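The authors processed the array scans by RMA background correction, quantile normalization and median polish, in Partek Genomics Suite 6.6, and deposited log2 intensities, which were used as deposited. The labels name Affymetrix Expression Console instead and another array type than the Clariom D chip of the methods. No source used here names the genome build of the array annotation. Of 72688 rows, 6732 control rows were left out and 65956 tested. Each row was fitted with limma 3.58.1 (R 4.3.3) over 19 arrays in 5 groups, with Benjamini-Hochberg adjustment over every tested row and a threshold of 0.05, and the script was tested on simulated data. By the methods, each collection day held samples of several conditions; which animals shared a day is not given in the labels, so day was not fitted. Alternatives were another scaling, filter, moderation or array weighting, fits of the compared groups alone, and fits without single animals or without HC animals 1 and 2. The named genes are the 10 members, up to 3 other pathway genes per comparison with HC by size of change past the threshold (otherwise by size), the genes most like Hif1a and Epas1, and Egln2, Hif3a, Arnt, Vhl and repeated values of Ldha and Ddit4, chosen after their values were seen. The members and lists were chosen with earlier results of these data known. The spread between animals and the number of arrays, 3 or 4 per group, limit the precision. Promoter windows were searched with Python 3.11.15 and figures drawn with matplotlib 3.10.9.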

Additional observations from a re-analysis of the deposited data

Results flagged for a closer look

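In 40 groups of 4 animals (10 genes in HC, CSD7, CSD14 and CSDrec), 3 held an animal whose gap to its nearest neighbour took up more of the group's range than Dixon's 95% critical value allows, where chance gives about 1 in 20. Epas1 in HC animal 2 (10.21) lay below the other HC animals with a ratio of 0.923. Bnip3 in CSDrec animal 31 (6.59) lay above the other CSDrec animals with a ratio of 0.934. Kdm3a in CSD14 animal 14 (6.82) lay below the other CSD14 animals with a ratio of 0.963.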

How the results depend on the processing

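No paired analysis was possible, because each animal belongs to 1 group and the labels give no pairing between animals. The calls against HC rested on the settings, and the cause was not tested. Of the 2, 4 and 2 genes called in CSD1, CSD7 and CSD14, 0, 0 and 0 were called after forcing all arrays to one distribution, without HC animals 1 and 2 together and in fits of the 2 groups alone, where far fewer rows or none were called as well. Of all rows 6.80%, 11.0% and 7.90% were called in either direction. Centring on the median of expressed rows gave 1 (Egln3, lower), 1 and 0 genes (29.5%, 35.0% and 8.45% of rows), array weights 6, 1 and 1 (15.9%, 0.878% and 2.24%), and fits without moderation 0, 1 and 1 (0%, 5.67% and 3.70%). Only expressed rows tested gave 4 in CSD1 and 4 in CSD14 (19.3% and 20.4%), and trend with robust moderation 0 in CSD1 (4.06%). Leaving out 1 animal gave 0 to 6 genes (CSD1), 0 to 7 (CSD7), 0 to 7 (CSD14) and 0 to 1 (CSDrec). The 1 in CSDrec came without HC animal 6 (20.9% of rows). CSD7 and CSD14 fell to 0 without either of HC animals 1 and 2, CSD7 also without its animal 17 and CSD14 without its animal 13, and both rose to 7 without either of HC animals 5 and 6. The shares of all rows in these fits are given above. In CSD1 the count was 0 on dropping HC animal 1 or 2 or CSD1 animal 18 or 19 (0% of rows in each). It was also 0 on dropping CSD7 animal 16 or 17 or any CSD14 or CSDrec animal (3.52% to 4.69% of rows). Dropping CSD7 animal 9 or 25 gave 1 (6.19% and 5.52%), and dropping HC animal 5 gave 5 (21.2%). The count was 6 on dropping HC animal 6 (25.2%) or CSD1 animal 4 (7.30%). The CSD7 count was 1 when animal 16 was dropped (1.89% of rows) and 2 when animal 25 was (7.87%). The CSD14 count was 1 when animal 12 or 15 was dropped (0.960% and 3.03%). The F-test gave 1 on expressed rows (5.84%), 6 with array weights (16.3%) and 0 to 5 on leaving out 1 animal (0% to 13.8%). CSD14 against CSD1 gave 1 (Hif1a, lower) with array weights (10.1%).

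Some uncalled differences changed sign. With one distribution they were -0.02 for Kdm3a in CSD1, -0.11, -0.12 and -0.15 for Hif1a in CSD7, CSD14 and CSDrec, 0.01 for Egln3 in CSD7, 0 for Egln1, -0.06 for Bnip3 and -0.06 for P4ha1 in CSDrec, and 0.05 for Epas1 between CSDrec and CSD14. Centring gave -0.01, -0.03 and -0.11 for Hif1a in CSD7, CSD14 and CSDrec and -0.06 for Ndrg1 in CSDrec. Without both of HC animals 1 and 2 they were -0.02, -0.07 and -0.13 for Hif1a and -0.08, -0.07 and -0.13 for Hilpda in CSD7, CSD14 and CSDrec, 0.13, 0.01 and 0.06 for Egln3 in the same order, and -0.03 for Egln1 and -0.02 for P4ha1 in CSDrec. Array weights gave 0.06 and 0.03 for Egln3 in CSD7 and CSDrec, -0.03 and -0.04 for Hilpda in the same groups, and -0.01 and -0.06 for Hif1a in CSD14 and CSDrec. Leaving out 1 animal moved Egln3 in CSD7 from -0.07 to 0.06 and Ankrd37 in CSDrec from -0.18 to 0.09.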
